A study of Rattus norvegicus with 12 samples.

Results

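The cells described here are the Kupffer cells of healthy rat liver, split by their RNA for Marco, a class A scavenger receptor of macrophages. Kupffer cells were chosen from measured counts of unique molecular identifiers (UMIs, each standing for 1 captured RNA molecule) in 4 single-cell libraries of total liver homogenate (TLH). A barcode was kept with at least 2000 UMIs and at most 40% of them from mitochondrial genes, and was taken as a Kupffer cell when Cd5l, Clec4f, Vsig4, C1qa, C1qb and C1qc together held at least 8 UMIs and at least 0.3% of its UMIs. Of 21819 kept cells, 1678 met this rule (7.69%). Of these, 381 had 5 or more Marco UMIs and are called Marco-high, 1012 had none and are called Marco-zero, and 285 with 1 to 4 Marco UMIs entered neither class. Marco and the 6 other genes chose the cells, so their levels in the classes are given as a description, with no test between the classes.

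The TLH libraries came from untreated, healthy male rats, 2 of the Dark Agouti (DA) and 2 of the Lewis (LEW) strain, with 1 library per rat, 2-step collagenase digestion, no enrichment and 10x 3′ version 2 chemistry. The series description gives these rats an age of 8 to 10 weeks, whereas the methods give an older one. The comparison was repeated in 2 immune-enriched cell libraries (1 DA, 1 LEW), which had further washes and red cell depletion, and in nuclei from frozen liver of further rats (2 DA, 2 LEW), both with version 3 chemistry. Genes were then read on 2 Visium sections of healthy male Wistar liver, where a spot holds several cells.

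Kupffer cells are the resident macrophages of the liver sinusoids. They take up particles, lipoproteins and aged red cells, break down heme and return its iron, and degrade what they ingest in lysosomes. MARCO binds bacteria and other polyanionic particles, CD5L is a secreted scavenger protein of resident macrophages, and CLEC4F is a lectin of rodent Kupffer cells. Major histocompatibility complex (MHC) class II molecules carry peptides to CD4 T cells, with CD74, the invariant chain, guarding the groove until it is loaded. In the rat the classical class II molecules are encoded by the RT1-B genes (RT1-Ba for the alpha and RT1-Bb for the beta chain) and the RT1-D genes (RT1-Da and RT1-Db1).

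The 4 class II genes were lower in Marco-high cells together, and the 100 bases before the start of each are shown for the letters that they share. All lie on chromosome 20 of GRCr8 in the RefSeq annotation, at chr20:4515315-4515414 on the plus strand for RT1-Da, chr20:4560163-4560262 on the minus strand for RT1-Db1, chr20:4576957-4577056 on the plus strand for RT1-Ba and chr20:4604119-4604218 on the minus strand for RT1-Bb. Capitals mark the letters CTGATTGG, which hold the CCAAT-type Y box known from class II promoters.
RT1-Da: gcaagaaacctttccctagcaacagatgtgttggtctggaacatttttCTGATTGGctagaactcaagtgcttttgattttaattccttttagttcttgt
RT1-Db1: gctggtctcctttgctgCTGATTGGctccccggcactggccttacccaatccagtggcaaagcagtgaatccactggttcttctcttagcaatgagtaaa
RT1-Ba: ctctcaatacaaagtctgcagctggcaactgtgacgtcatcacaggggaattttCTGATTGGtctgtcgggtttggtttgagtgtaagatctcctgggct
RT1-Bb: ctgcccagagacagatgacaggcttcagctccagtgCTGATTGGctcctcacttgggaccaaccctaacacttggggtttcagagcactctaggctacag
The first capital stood 52 bases before the start in RT1-Da, 83 in RT1-Db1, 46 in RT1-Ba and 64 in RT1-Bb. Searched on both strands of 300-base windows, from 250 bases before to 50 after the start, these 8 letters were found in 1172 of 33469 RefSeq promoters (3.5%). A window was at hand for 8 of the 10 genes of the class II list and held the letters in 5, these 4 and RT1-DOa, which had too few UMIs to test. Cd74 on chromosome 18, tested and lower as well, did not hold these exact letters. Only exact matches were searched, so CCAAT-type boxes with other neighbouring letters were not counted, in Cd74 or elsewhere. The match is a description of the letters and not of a bound site.

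Each rat gave both classes. Marco-high and Marco-zero cells numbered 60 and 169 in DA-1, 124 and 451 in DA-2, 98 and 185 in LEW-1, and 99 and 207 in LEW-2. The median Marco count of a Marco-high cell was 10 UMIs in DA-1, 15 in DA-2, 26.5 in LEW-1 and 28 in LEW-2. Summed over a rat's Marco-high cells, Marco stood at 4895 CPM (UMIs of the gene per 1000000 UMIs of the sum) in DA-1, 5590 in DA-2, 7893 in LEW-1 and 9079 in LEW-2. Both LEW rats thus lay above both DA rats in Marco per Marco-high cell.

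The counts of Marco were spread from 0 upward with no gap at the limits used. A single Marco UMI was found in 28, 67, 25 and 43 Kupffer cells of DA-1, DA-2, LEW-1 and LEW-2, and more than 30 UMIs in 2, 24, 43 and 45. Just below the limit, 4 to 8 cells per rat had 4 Marco UMIs and 954 to 1461 CPM of Marco, and just above it 5 to 8 cells had 5 UMIs and 1574 to 1794 CPM. At the limit on the other 6 genes, 2 to 17 cells per rat had a sum of 7 and were left out, and 3 to 8 had a sum of 8 and were kept. Marco UMIs were also found outside the Kupffer rule, in cells called hepatocyte-rich. These were the other kept cells whose share of hepatocyte marker RNA lay above the median of the library, and they can include further cell types. Of them (median 2292 to 2593 UMIs) 5.28% to 8.19% had at least 1 Marco UMI and at most 0.172% had 5 or more. A single Marco UMI is thus also found outside the Kupffer rule, and Kupffer cells with 1 to 4 Marco UMIs are in neither class.

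**Figure D1:**
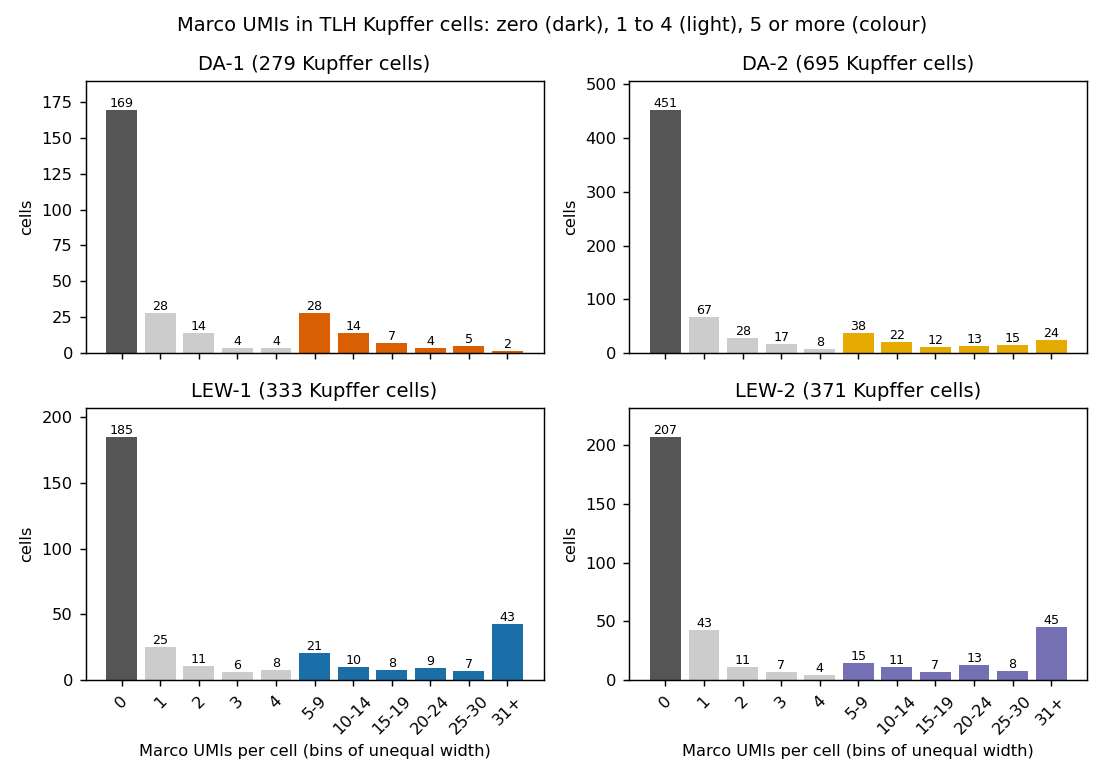
Number of Kupffer cells (vertical axis) against Marco UMIs per cell (horizontal axis, bins of unequal width), 1 panel per TLH library. The dark bar marks Marco-zero cells, light bars 1 to 4 UMIs and coloured bars Marco-high cells (5 UMIs or more). Marco-zero cells are the tallest bar in each of the 4 TLH libraries (169 to 451 cells), and counts above 30 UMIs stand in 43 and 45 cells of the LEW rats.

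Cd5l and Clec4f are among the genes that chose the cells, so their levels describe the classes and are no check of the label. Cd5l stood at 1313, 1316, 2351 and 1930 CPM in the Marco-zero cells of DA-1, DA-2, LEW-1 and LEW-2 and at 2515, 2716, 3430 and 3720 CPM in their Marco-high cells. Clec4f went from 1532 to 2122, 1929 to 2291, 2467 to 3058 and 2183 to 3522 CPM in the same order. Both were higher in the Marco-high cells of every rat, and only Cd5l did not overlap between the classes. At least 3 UMIs of Cd5l and Clec4f together were found in 84.0% to 88.1% of Marco-zero and in 96.7% to 100% of Marco-high cells. The Marco-zero class also held 1.08% to 3.33% of cells with no UMI of either gene, and in the immune-enriched libraries 18.8% (DA) and 7.22% (LEW).

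Marco-high cells were the deeper class, with a median of 2514, 3322, 3871 and 3368 UMIs against 2356, 2997, 3305 and 2956. Their mitochondrial share was higher (medians 4.24% to 5.90% against 3.57% to 4.44%) and their share of hepatocyte marker RNA lower (5.44% to 8.38% against 6.92% to 9.66%). Libraries held 61441846 to 92484173 UMIs, and the summed cells of a class 155058 to 440041 UMIs when Marco-high and 414430 to 1439541 when Marco-zero. Between 8 and 24 barcodes were shared by any pair of nuclear libraries, whereas the TLH counts came without barcodes to compare. The part of depth and of hepatocyte RNA in a result is given below by alternatives that match the classes on each.

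Marco-high cells made up 21.5% of Kupffer cells in DA-1, 17.8% in DA-2, 29.4% in LEW-1 and 26.7% in LEW-2. Their share was higher in both LEW rats, with means of 28.1% and 19.7%, a difference of 8.38 percentage points. An exact two-sided permutation test gave p = 0.333, the smallest value that 2 rats against 2 allow. After thinning of every cell to 2000 UMIs, with 2 or more Marco UMIs then taken as Marco-high, the difference was 7.36 points. In nuclei the Marco-positive share was 28.9% in DA-1, 25.4% in DA-2, 38.5% in LEW-1 and 23.7% in LEW-2, so the strains overlapped and the lowest share was that of a LEW rat.

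To find genes that move with Marco, UMIs were summed per rat and class and compared within rats by edgeR's quasi-likelihood test, with p-values adjusted over all 5031 genes tested (Benjamini-Hochberg). Differences are log2 values of Marco-high less Marco-zero with a standard error (SE), so 1 is a doubling. At an adjusted p of 0.05, 201 genes were higher in Marco-high cells (4.0% of genes tested) and 312 were lower (6.2%). The classes did not overlap in CPM for 292 genes (5.8%), and the median difference of all genes was -0.0029. Without the pairing of classes within rats the same test called 1 gene higher and 4 lower, so nearly all calls rest on differences within a rat.

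Directions depend on the scale. Kupffer genes as a group were higher in Marco-high cells, so that scaling each sum on the Kupffer genes outside the rule, in place of all genes, moved the median of all genes to -0.32 and the calls to 44 higher and 1375 lower. The values given next are relative to all RNA of the cell, and genes whose direction turns under the other scale are named as such. A further 14 named genes lost their call under it without turning, and not all of them are marked below.

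MHC class II genes were lower in Marco-high cells, in every rat. The invariant chain gene Cd74 stood at 1998, 1594, 878 and 2252 CPM in the Marco-zero cells of DA-1, DA-2, LEW-1 and LEW-2 and at 599.8, 414, 293 and 251 CPM in their Marco-high cells. The highest Marco-high sum lay below the lowest Marco-zero sum, and the difference was -2.18 (SE 0.30, adjusted p = 0.0333). This call was lost in 11 of 20 alternatives, with an adjusted p of up to 0.216. Over all 20 the value ran from -2.61 to -0.74, the latter with class II-rich cells left out, where the call was kept. The beta chain gene RT1-Bb stood at 413, 378, 194 and 670.0 CPM against 70.9, 86.4, 40.8 and 53.1. Its classes were apart by -2.72 (SE 0.14, adjusted p = 1.84e-55). The alpha chain gene RT1-Ba stood at 398, 327, 243 and 695 CPM against 83.8, 84.1, 63.8 and 58.95. Its difference was -2.53 (SE 0.14, adjusted p = 5.45e-36), again with no overlap.

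The RT1-D genes showed the same order. RT1-Db1 stood at 618, 531, 401 and 1408 CPM in Marco-zero and at 168, 157, 115 and 139 CPM in Marco-high cells, a difference of -2.36 (SE 0.33, adjusted p = 0.0333). RT1-Da stood at 613, 476, 388 and 1065 CPM against 168, 159, 112 and 103, a difference of -2.24 (SE 0.34, adjusted p = 0.0406). LEW-2 held the highest level of all 5 genes among Marco-zero cells, while its Marco-high cells lay within or below the range of the other rats. The 5 tested genes of the 10-gene class II list were all lower (0 higher, 5 lower; median -2.36), and the other 5, among them the class II regulator Ciita, had too few UMIs for the test. Without LEW-1 the calls of Cd74, RT1-Da and RT1-Db1 were lost, leaving 2 of 5, with differences of -2.36, -2.38 and -2.53 (adjusted p = 0.197, 0.206 and 0.149). Cd74 also lost its call without DA-1 (-2.29, adjusted p = 0.216) and without DA-2 (-2.28, adjusted p = 0.168).

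**Figure D2:**
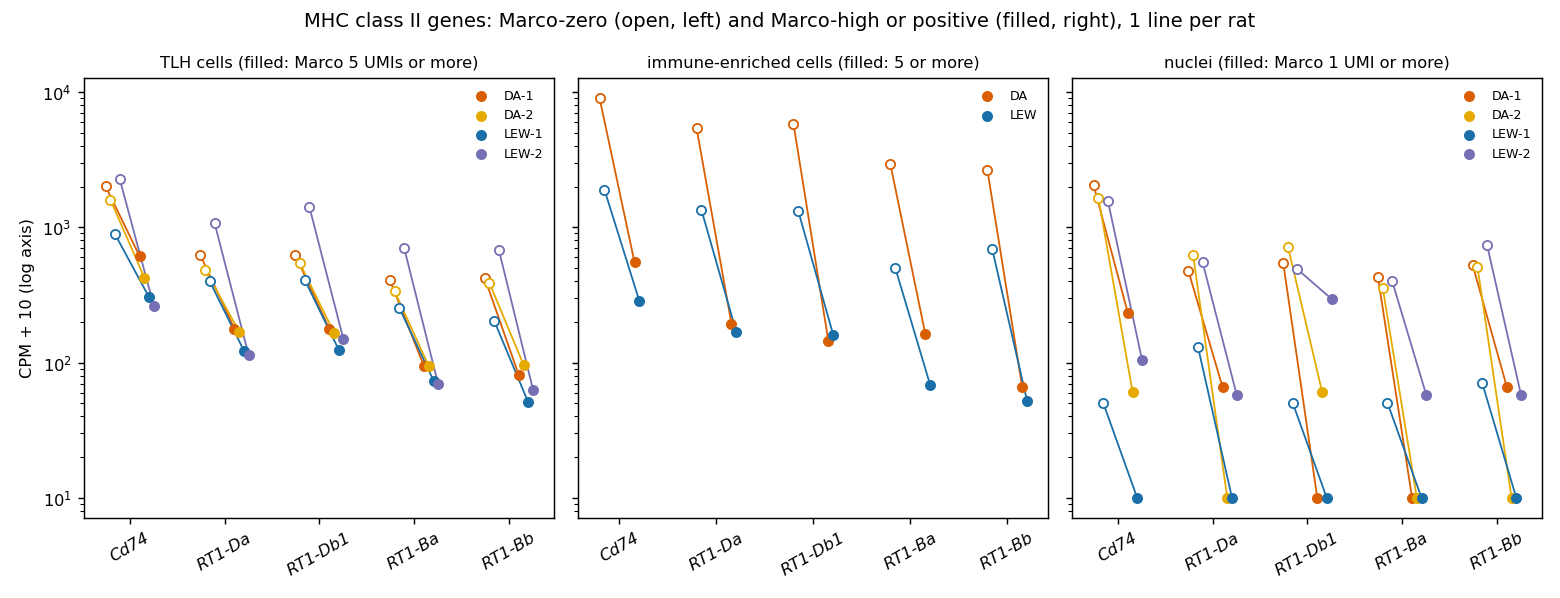
CPM on a log axis (vertical) of the MHC class II genes in Marco-zero and Marco-high Kupffer cells, with each line joining the classes of 1 library. Every line falls in the 4 TLH libraries, as for RT1-Bb from 194 to 670.0 CPM down to 40.8 to 86.4 CPM.

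Fewer Marco-high than Marco-zero cells held class II RNA. At least 5 class II UMIs were found in 38.5%, 30.4%, 14.6% and 26.1% of Marco-zero cells of DA-1, DA-2, LEW-1 and LEW-2 and in 16.7%, 9.68%, 7.14% and 5.05% of Marco-high cells. In hepatocyte-rich cells of the same libraries, at median depths of 2292 to 2593 UMIs, the share was 0.147% to 0.655%. With all cells of 5 or more class II UMIs left out of both classes, a step that itself removes most class II RNA, Cd74 still differed by -0.74 (adjusted p = 0.00034), RT1-Da by -0.86 (adjusted p = 0.0448) and RT1-Db1 by -0.79 (adjusted p = 0.0467). RT1-Ba no longer did (-0.28, adjusted p = 0.726), and RT1-Bb was too low to test.

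Lyz2 and Ccl2 were also lower. Lyz2, the macrophage lysozyme, stood at 79.6, 75.7, 145 and 184 CPM in Marco-zero and at 25.8, 11.4, 17.9 and 56.0 CPM in Marco-high cells. Its classes did not overlap and differed by -2.29 (SE 0.22, adjusted p = 2.07e-20). Ccl2, which draws monocytes, stood at 84.5, 15.3, 25.4 and 15.4 CPM against 19.3, 2.27, 2.55 and 2.95, with 83 UMIs in all Marco-zero and 6 in all Marco-high cells. It was lower within each rat, by -2.56 (SE 0.51, adjusted p = 3.60e-05), although DA-1 stood above the other rats in both classes. Among 11 tested cytokines and chemokines 4 were lower and 2 higher (median -0.35). The lower ones were Ccl2, the interferon-induced Cxcl10 (-1.04), the eosinophil attractant Ccl24 (-0.89) and Il1b (-0.57, adjusted p = 0.0248), and the higher ones Ccl6 (0.42, adjusted p = 1.39e-12) and Il18 (0.49, adjusted p = 0.0165). The summed level of the list was higher in the Marco-high cells of all 4 rats (3734 to 12387 against 3145 to 9485 CPM), opposite to its median. Most of this sum was Ccl6, at 4256 of 4966, 3288 of 3734, 11767 of 12387 and 10826 of 11457 CPM in Marco-high cells. In Marco-zero cells Ccl6 made up 2801 of 3467, 2643 of 3145, 8748 of 9485 and 6932 of 7628 CPM. The sum thus mainly follows Ccl6 and does not speak for the other members. Cxcl10 and Ccl24 were named after their values were seen.

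Monocyte and recruited macrophage markers moved in both directions, with 3 higher and 4 lower of 12 tested (median -0.27). Besides Lyz2, the cystatin gene Cst3 (-0.62, adjusted p = 1.86e-09), the calcium-binding S100a11 (-1.70, adjusted p = 0.0108) and fibronectin Fn1 (-0.31, adjusted p = 0.0103) were lower. Higher were S100a8, Plac8 and the aspartic protease gene Napsa (0.74, adjusted p = 4.80e-06). S100a11, Fn1 and Napsa were chosen after their values were seen. Plac8 stood at 319, 220.2, 639 and 448 CPM in Marco-zero and at 645, 459, 972 and 793 CPM in Marco-high cells, a difference of 0.78 (SE 0.08, adjusted p = 1.02e-16), with a wide overlap between rats and a rise within each. The integrin gene Itgal was listed at 0 to 2.27 CPM in both DA rats and went from 148 to 186 and from 100.4 to 179.8 CPM in LEW-1 and LEW-2. It did not pass the test (0.52, SE 0.19, adjusted p = 0.0674).

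Genes of other liver cell types were lower in Marco-high cells as well. All 7 tested stellate and mesenchymal markers were lower (median -1.07), and their summed level was 889 to 1539 CPM in Marco-zero against 457 to 761 CPM in Marco-high cells. Ecm1, a matrix protein gene, stood at 355, 509, 205 and 295 CPM against 123, 216, 71.4 and 94.3, a difference of -1.48 (SE 0.12, adjusted p = 8.45e-27). Collagen gene Col3a1 (-1.11, adjusted p = 7.40e-08) and lectin gene Colec11 (-1.07, adjusted p = 4.44e-11) followed. Of 14 tested sinusoidal endothelial markers 8 were lower and 1 higher (median -0.73), among the lower ones the hyaluronan receptor gene Lyve1 (-0.82, adjusted p = 2.10e-05), the Fc receptor gene Fcgr2b (-1.06, adjusted p = 2.74e-04), Igfbp7 (-0.89, adjusted p = 9.18e-11) and Sparc (-0.76, adjusted p = 2.26e-06). The higher one was the cadherin gene Cdh5 (0.46, adjusted p = 0.0102), named after its value was seen.

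At least 10 mesenchymal UMIs were found in 4.86% to 13.1% of Marco-zero and 1.01% to 5.65% of Marco-high cells, and in 0.264% to 0.993% of hepatocyte-rich cells. At least 1 mesenchymal UMI was found in 56.2% to 80.2% of Marco-zero, 45% to 79.8% of Marco-high and 47.5% to 82.3% of hepatocyte-rich cells. Leaving out all cells with such a UMI left 3 endothelial markers to test with Lyve1 at 0.08, and took calls over all genes to 54 higher and 65 lower. Of 24 tested hepatocyte markers 18 were lower and 0 higher (median -0.33). Albumin (Alb) stood at 12132, 20170, 12861 and 12332 CPM in Marco-zero and at 9500, 16789, 9056 and 11236 CPM in Marco-high cells, a difference of -0.38 (SE 0.05, adjusted p = 2.32e-11). With the classes matched on their hepatocyte RNA, the hepatocyte list held 2 higher and 0 lower with a median of -0.04. The matching used the share of UMIs in this same list, so the change of the list follows from the matching. Calls over all genes went to 77 higher and 150 lower. A screen for doublets, droplets that may hold more than 1 cell, left out cells called by Scrublet or in the top 6% of its scores. The screen thus removes a set share of each library, and Scrublet itself called only 14, 4, 3 and 2 kept cells in DA-1, DA-2, LEW-1 and LEW-2. Left out were 14.2%, 9.09%, 9.19% and 10.6% of the Marco-zero cells of these rats. Of their Marco-high cells the screen left out 8.33%, 5.65%, 4.08% and 7.07%. Whether such RNA was free in the suspension, taken up or from cells in the same droplet was not tested.

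Markers of the remaining cell types were mostly too low to test, with high sums in single rats. T and NK cell markers summed to 20.7 to 181 CPM in Marco-zero and 30.6 to 451 CPM in Marco-high cells, DA-1 being the highest in both, and the 1 gene of the list that could be tested, the chemokine Ccl5, was not called (-0.0007). B and plasma cell markers summed to 7.24 to 973 against 4.55 to 26.5 CPM, the highest being LEW-2, where 0.483% of 207 Marco-zero cells had 5 or more UMIs of Ighm, with 0 of 1 tested gene called. Dendritic cell markers summed to 25.4 to 67.6 against 11.8 to 58.0 CPM, and of 2 tested the lectin gene Clec10a was lower (-1.70, adjusted p = 0.0379). Erythroid markers summed to 3.09 to 12.1 against 0 to 4.55 CPM with none testable, and the 1 tested cholangiocyte marker, Anxa4, was not called (0.0002).

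Further genes with large decreases were Ccn1, a matricellular growth regulator, Gja1, which encodes the gap junction protein connexin 43, and RGD1561143. Ccn1 stood at 50.7, 90.3, 12.7 and 17.0 CPM in Marco-zero and at 0, 29.5, 2.55 and 8.84 CPM in Marco-high cells (-1.84, SE 0.33, adjusted p = 3.15e-06). RGD1561143 stood at 118, 93.1, 44.5 and 103 CPM against 25.8, 29.5, 22.95 and 23.6, without overlap (-1.78, SE 0.24, adjusted p = 7.15e-11). Gja1 stood at 43.4, 36.8, 23.9 and 17.0 CPM against 12.9, 13.6, 5.10 and 5.90, also without overlap (-1.70, SE 0.40, adjusted p = 6.26e-04). All were lower within each of the 4 rats.

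Hmox1 and Cd163, genes of heme breakdown and uptake, were higher in the Marco-high cells of every rat. Hmox1, which encodes heme oxygenase 1, the enzyme that opens the heme ring, stood at 557, 714, 404 and 397 CPM in the Marco-zero cells of DA-1, DA-2, LEW-1 and LEW-2 and at 1219, 1284, 885 and 893 CPM in their Marco-high cells. Its classes did not overlap and differed by 0.97 (SE 0.07, adjusted p = 4.92e-32). At least 1 Hmox1 UMI was found in 50.8% to 65.6% of Marco-zero cells, 68.7% to 85.5% of Marco-high cells and 3.36% to 5.40% of hepatocyte-rich cells. Cd163, the receptor for haptoglobin-bound hemoglobin, went from 309 to 471, 405 to 616, 364 to 553 and 359.7 to 536 CPM, also without overlap (0.53, SE 0.09, adjusted p = 2.78e-07). Under the Kupffer scaling Hmox1 stayed past the threshold (0.65) and Cd163 did not (0.21, adjusted p = 0.104).

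Of 12 tested heme and iron genes 4 were higher and 1 was lower (median 0.24). Besides Hmox1 and Cd163, the heme transporter gene Slc48a1 (0.43, adjusted p = 0.0297, chosen after its value was seen) and the ferritin light chain gene Ftl1 (0.24, adjusted p = 6.79e-05) were higher, and Ftl1 turned to -0.09 under the Kupffer scaling. Hamp, which encodes the hepatocyte hormone hepcidin, was lower (-0.29, adjusted p = 1.74e-04). The iron exporter gene Slc40a1 and the Kupffer marker Timd4 were not analysed here.

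Lysosomal genes were the list with the most higher members, with 13 higher and 0 lower of 27 tested (median 0.31). The protease cathepsin D gene Ctsd stood at 355, 363, 299 and 270.2 CPM in Marco-zero and at 593, 745, 604 and 475 CPM in Marco-high cells, without overlap (0.86, SE 0.09, adjusted p = 2.46e-18). Progranulin (Grn), a secreted and lysosomal glycoprotein, went from 1011 to 1612, 1250.4 to 1925, 1466 to 2326 and 1252 to 2116 CPM (0.61, SE 0.06, adjusted p = 3.33e-19). Psap, the precursor of saposins that aid lipid breakdown (0.49, adjusted p = 1.87e-14), and cathepsin B gene Ctsb (0.55, adjusted p = 2.34e-09) were also higher without overlap. Under the Kupffer scaling the list held 2 higher and 2 lower with a median of -0.03, and Ctsd (0.54) and Grn (0.28) stayed past the threshold, whereas Psap (0.16) and Ctsb (0.23) did not.

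Of 12 tested genes of lipid handling and liver X receptor targets 2 were higher and 0 lower (median 0.16). The cholesterol exporter gene Abca1 stood at 140.0, 131, 121 and 95.7 CPM in Marco-zero and at 181, 207, 258 and 256 CPM in Marco-high cells, without overlap (0.85, SE 0.13, adjusted p = 4.69e-09). Lipa, the lysosomal acid lipase gene, was the other (0.43, adjusted p = 6.09e-05). Apoe did not pass the test (0.15, SE 0.05, adjusted p = 0.0564) and its value turned to -0.18 under the Kupffer scaling.

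Of 12 tested scavenger and uptake receptors 4 were higher and 1, Fcgr2b, was lower (median 0.28). The beta 2 integrin gene Itgb2, a partner of complement receptor chains, stood at 118, 136, 132 and 108 CPM in Marco-zero and at 232, 245, 219 and 224 CPM in Marco-high cells (0.82, SE 0.12, adjusted p = 1.45e-08). Every Marco-high sum lay above every Marco-zero sum. Cd163, Axl, a receptor for dying cells (0.37, adjusted p = 0.00238), and the mannose receptor gene Mrc1 (0.37, adjusted p = 0.00238, chosen after its value was seen) were the others. Lgals3, a galectin gene on no list and chosen after its values were seen, went from 275 to 671, 216 to 559, 495 to 1125 and 506 to 911 CPM, without overlap (1.09, SE 0.08, adjusted p = 4.92e-32).

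**Figure D3:**
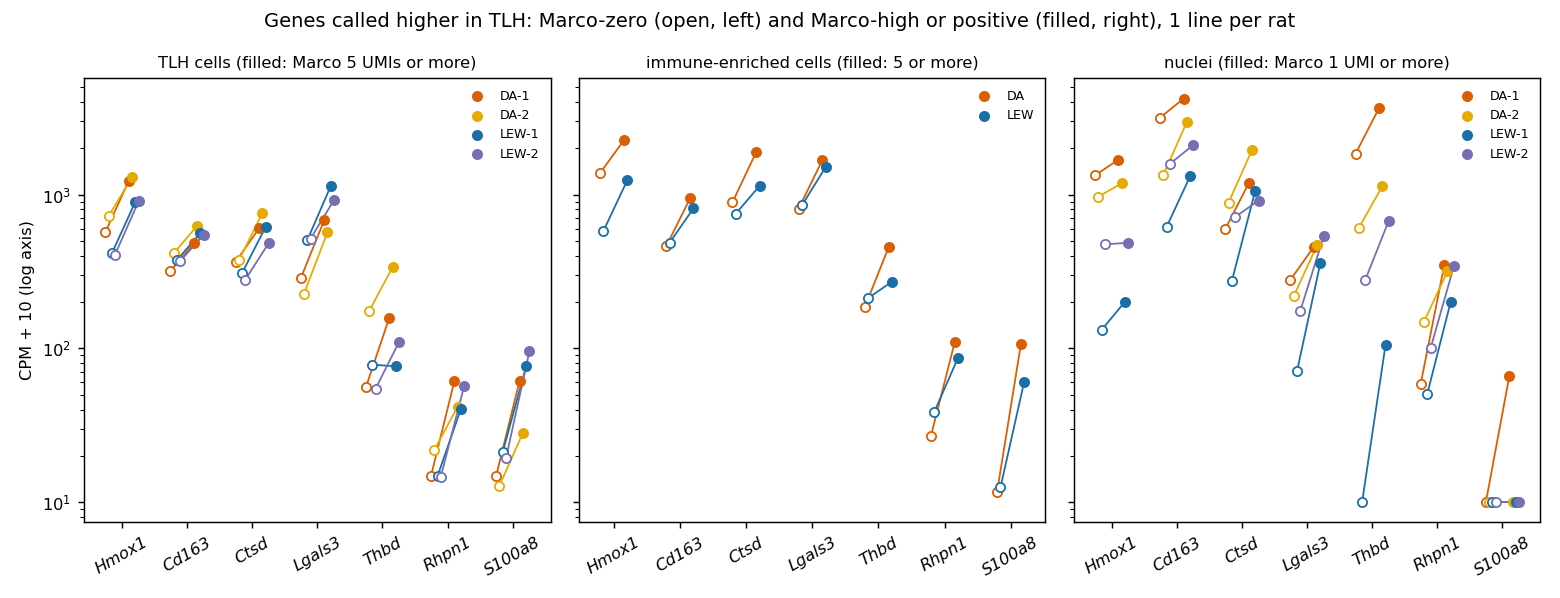
CPM on a log axis (vertical) of genes higher in Marco-high Kupffer cells, with each line joining the Marco-zero and Marco-high classes of 1 library. In the TLH libraries Hmox1 goes from 397 to 714 CPM up to 885 to 1284 CPM, and Ctsd from 270.2 to 363 CPM up to 475 to 745 CPM.

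Kupffer identity genes outside the rule were higher as a group, with 10 higher and 1 lower of 23 tested (median 0.26). Their summed level was 12888 to 22667 CPM in Marco-zero and 16169 to 29224 CPM in Marco-high cells, and it was higher in the Marco-high cells of all 4 rats. Ccl6 was part of this sum too, with 2643 to 8748 CPM in Marco-zero and 3288 to 11767 CPM in Marco-high cells. Ccl6 (0.42), the ficolin gene Fcna (0.44, adjusted p = 2.02e-09), the prostaglandin enzyme gene Ptgs1 (0.57, adjusted p = 5.05e-07, chosen after its value was seen) and Aif1, the calcium-binding IBA1 (0.31, adjusted p = 1.81e-05), were among them, the last turning to -0.03 under the Kupffer scaling. The lysosomal glycoprotein gene Cd68 was not called (0.17, SE 0.08, adjusted p = 0.160), with 388, 469.6, 751 and 849 CPM against 381, 536, 879.9 and 1108. Under the Kupffer scaling this list held 1 higher and 6 lower, its own genes setting the scale.

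Of 9 tested complement and ficolin genes 2 were higher and 2 lower (median 0.11), with C6, a part of the membrane attack complex (0.48, adjusted p = 2.77e-06), and Fcna higher, and C3 (-0.37, adjusted p = 3.94e-06) and Cfd (-0.29, adjusted p = 0.0198) lower. Of 18 macrophage transcription factor genes 3 were higher and 0 lower (median 0.17), namely Spi1, the myeloid factor PU.1 (0.36, adjusted p = 0.0292), Irf7 (0.43, adjusted p = 0.0272) and Cebpb (0.23, adjusted p = 0.0247), the last at -0.09 under the Kupffer scaling. Of 18 interferon response genes 3 were higher and 1 lower (median 0.13), with the guanylate-binding Gbp2 (0.52, adjusted p = 0.0056), the antiviral Mx1 (0.42, adjusted p = 0.0410) and Irf7 higher and Ifitm3 (-0.26, adjusted p = 0.0122) lower. No gene was called among 7 of the Toll-like receptor pathway (median 0.21), 14 of the dissociation response (median -0.04) and 2 of the cell cycle (median 0.40).

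Hepatocyte zonation genes were read as well. The paper holds it likely that fragile hepatocytes leaked RNA into the homogenate, so these genes cannot tell where a cell had lain. Of 10 periportal genes 1 was higher and 1 lower (median -0.08). The gluconeogenic enzyme gene Pck1 was the higher one (0.27, adjusted p = 2.24e-04), with -0.06 under the Kupffer scaling, and transferrin (Tf) the lower one (-0.25, adjusted p = 3.42e-05). Of 8 tested pericentral genes 0 were higher and 3 lower (median -0.21), among them the cytochrome gene Cyp2e1 (-0.27, adjusted p = 0.00130). With the classes matched on hepatocyte RNA, Tf (0.02) and Cyp2e1 (0.04) turned direction, both being members of the list used for the matching.

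**Figure D4:**
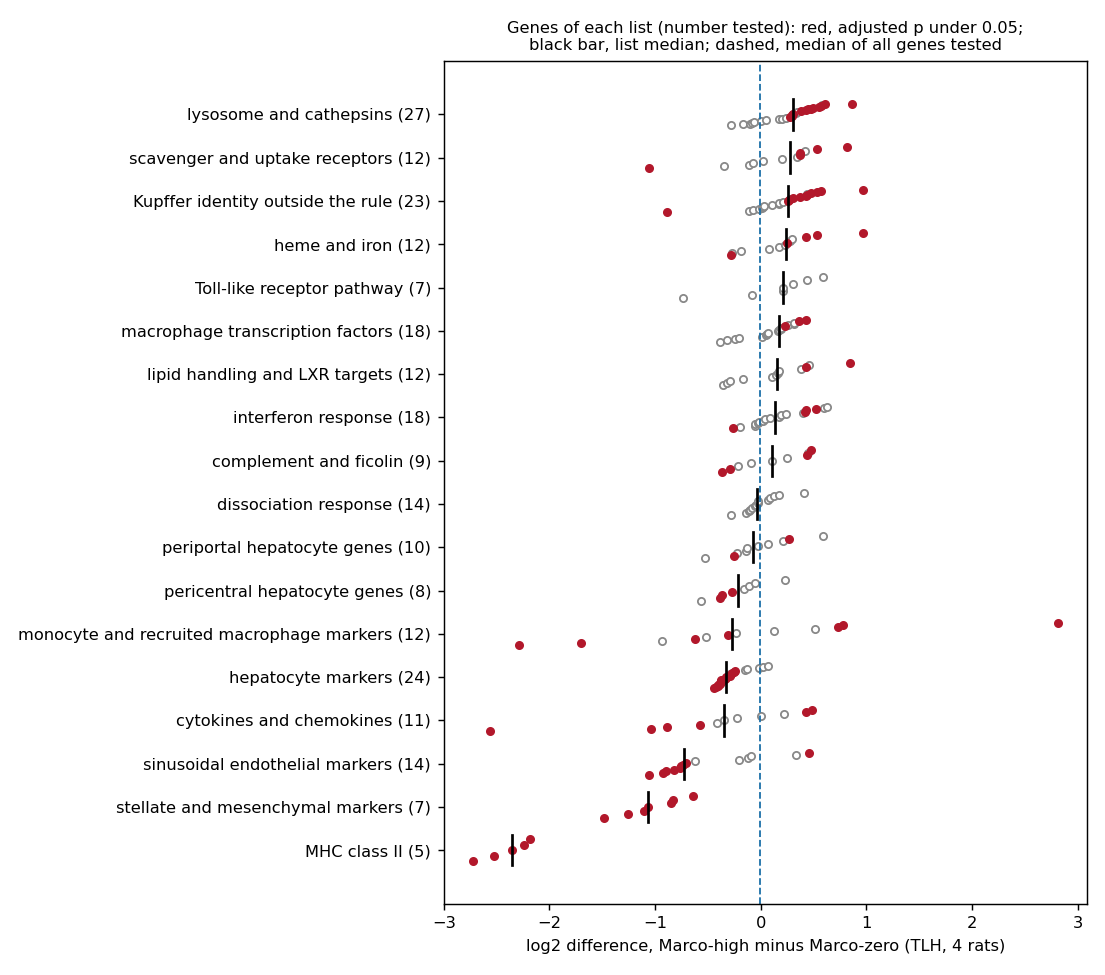
Log2 difference between Marco-high and Marco-zero Kupffer cells (horizontal axis) of each tested gene by list (vertical axis), with the median of each list marked. MHC class II (median -2.36) and mesenchymal markers (-1.07) lie to the left, and lysosomal genes (0.31) to the right of the median of all genes.

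The genes with the largest increases among those with at least 50 UMIs rested on low counts. S100a8, a calcium-binding subunit of calprotectin known from neutrophils and monocytes, stood at 4.83, 2.78, 11.1 and 9.26 CPM in Marco-zero and at 51.6, 18.2, 66.3 and 85.5 CPM in Marco-high cells, without overlap (2.82, SE 0.37, adjusted p = 1.89e-11). Rhpn1 stood at 4.83, 11.8, 4.77 and 4.63 CPM against 51.6, 31.8, 30.6 and 47.2, also without overlap (2.24, SE 0.40, adjusted p = 2.71e-06). Both stayed past the threshold in every alternative in which they were tested.

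Rspo1, a Wnt signal enhancer, went from 21.7 to 38.7, 7.64 to 27.3, 15.9 to 43.4 and 21.6 to 58.95 CPM (1.36, SE 0.32, adjusted p = 5.80e-04), without overlap. Blk, a kinase best known from B cells, went from 12.7 to 38.3 and from 6.18 to 44.2 CPM in LEW-1 and LEW-2 and from 4.83 to 6.45 and 2.78 to 4.55 CPM in DA-1 and DA-2 (1.70, SE 0.52, adjusted p = 0.0156). The others of the 10 were Trem1, an activating receptor of myeloid cells (1.64), Wfdc15b (1.62), the mechanosensitive channel gene Piezo1 (1.46), Nrip3 (1.43), the small GTPase gene Rab31 (1.39) and Vopp1 (1.37), with adjusted p from 0.0106 to 0.0474.

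The strain of the rat was next tested as a term of the class difference. One gene of 5031 (0.0199%) was called, the chemokine gene Ccl5, with a difference that was lower in LEW than in DA by 2.33 on the log2 scale (-2.33, SE 0.52, adjusted p = 0.0423). Its CPM went from 109 to 290.2 in DA-1, 34.0 to 29.5 in DA-2, 9.54 to 17.9 in LEW-1 and 95.7 to 14.7 in LEW-2, so the rats of a strain did not move alike. The call was lost with DESeq2 and with no filter, and in immune-enriched cells, where Ccl5 was not tested, it went from 5.10 to 3.13 CPM in DA and from 3.26 to 192 CPM in LEW, the opposite order of the strains. The term was not called for the class II genes, whose values were -0.95 for RT1-Da (adjusted p = 0.291), -0.90 for RT1-Db1 (adjusted p = 0.350), -0.86 for RT1-Bb, -0.78 for RT1-Ba and -0.51 for Cd74, nor for Hmox1 (0.22).

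The comparison was then repeated in libraries other than those in which the genes were called. The immune-enriched cells, kept at 1000 UMIs and 50% mitochondrial UMIs, held 315 Kupffer cells, of which 23 (DA) and 81 (LEW) were Marco-high and 85 and 97 were Marco-zero. Of 6955 genes tested 90 were higher (1.29%) and 206 lower (2.96%) in Marco-high cells. With 1 rat per strain this fit left 1 residual degree of freedom. Its p-values therefore lean on dispersions shared across genes, and small ones do not measure how closely the rats agreed. All 201 genes higher in TLH were tested there, 186 of them had the same sign (92.5%, against 46.1% of all genes) and 43 were called. Of the 312 lower genes 294 were tested, 256 had the same sign (87.1%, against 53.9%) and 65 were called, none in the opposite direction. The shared calls made up 21.4% of the TLH and 47.8% of the immune-enriched calls of higher genes, and 20.8% and 31.6% of the lower ones.

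Class II genes were again lower. Cd74 stood at 8953 CPM (DA) and 1884 CPM (LEW) in Marco-zero and at 541 and 275 CPM in Marco-high cells (-3.39, adjusted p = 1.80e-40). RT1-Bb went from 2662 to 56.3 and from 684 to 42.3 CPM (-4.63, adjusted p = 3.86e-62), whereas RT1-Db1, from 5818 to 134 and 1307 to 150.3 CPM, was not called (-4.15, adjusted p = 0.179). At least 5 class II UMIs were found in 68.2% (DA) and 42.3% (LEW) of Marco-zero and in 43.5% and 13.6% of Marco-high cells, at median depths of 7286 and 10921 against 13097 and 16647 UMIs. In hepatocyte-rich cells (median 2672 and 17984 UMIs) the share was 9.25% and 0.150%. Those cells can include other cell types, so these shares are not a pure hepatocyte background. With cells of 5 or more class II UMIs left out, 0 genes were called higher and 2 lower (340 at an unadjusted p under 0.05), and Cd74 was at -1.30 (adjusted p = 0.693).

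Hmox1 went from 1369 to 2250.4 CPM in DA and from 571 to 1227 CPM in LEW (0.92, adjusted p = 0.00169), Cd163 from 453 to 935 and 476 to 803 CPM (0.90, adjusted p = 5.22e-04), and Ctsd from 881 to 1885 and 742 to 1128 CPM (0.85, adjusted p = 0.00373). S100a8 was at 1.70 and 2.45 CPM against 96.9 and 50.8 (4.81, adjusted p = 7.90e-21), and Rhpn1 at 17.0 and 28.6 CPM against 100.02 and 76.9 (1.78, adjusted p = 1.01e-08). Of the other 8 genes with the largest increases in TLH, only Wfdc15b was called (1.87, adjusted p = 0.0222). Blk (0.80), Rspo1 (0.79), Vopp1 (0.45), Trem1 (0.41), Rab31 (0.17) and Nrip3 (0.11) were not, with adjusted p from 0.0827 to 0.958, nor was Piezo1, which was lower in the Marco-high cells of both rats (-0.44, adjusted p = 0.735). Apoe, not called in TLH, went from 1771 to 3563 and from 2578 to 6065 CPM (1.13, adjusted p = 1.81e-05). Lyz2 was lower (1909 to 706 and 255 to 22.6 CPM; -2.26, adjusted p = 3.93e-13), although it stood at 0.38 once cells with under 3 Cd5l and Clec4f UMIs were left out and its call was lost in 5 of 8 alternatives. Also lower were 8 of 8 tested mesenchymal markers (median -1.42), while of 24 hepatocyte markers 0 were called (median -0.26). Of 25 Kupffer genes 5 were higher and 1 lower (median 0.27), and of 28 lysosomal genes 2 were higher (median 0.31). Grn was not called (0.51, adjusted p = 0.208). Of 23 macrophage transcription factor genes 1 was higher and 0 lower (median -0.01). Spi1 (0.54, adjusted p = 0.0520), Irf7 (0.48, adjusted p = 0.226) and Cebpb (0.31, adjusted p = 0.623), called in TLH, were not called here. Among 19 interferon response genes 0 were called (median 0.08).

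In nuclei the sums were small, and any Marco UMI was taken as positive. Of 12525 kept nuclei 203 were Kupffer nuclei (a 6-gene sum of 3 or more), of which 57 were Marco-positive and 146 Marco-zero. Of 856 genes tested 9 were higher (1.05%) and 7 lower (0.818%). Cd74 stood at 2030.4, 1640, 40.5 and 1558 CPM in the Marco-zero nuclei of DA-1, DA-2, LEW-1 and LEW-2 and at 224, 51.0, 0 and 95.2 CPM in the Marco-positive ones, from 307 and 7 UMIs (-3.86, adjusted p = 1.57e-16). All 5 class II genes tested were lower (median -4.01). Ctsd went from 587 to 1175, 875 to 1938, 263 to 1050.2 and 704 to 905 CPM (1.04, SE 0.26, adjusted p = 0.00807), and Cd163 was higher too (0.69, adjusted p = 0.0451). Hmox1 was not called (0.25, adjusted p = 0.816), and S100a8 had 0 and 1 UMIs. Rhpn1 went from 48.9 to 336, 139 to 306, 40.5 to 191 and 89.9 to 333 CPM but missed the threshold (1.77, adjusted p = 0.0970).

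Called in all 3 assays were Ctsd, Cd163, Thbd, Lgals3 and AC114233.2 among the higher genes and Cd74, RT1-Ba, RT1-Bb and RT1-Da among the lower ones. In nuclei the calls of Ctsd and Thbd were lost in 9, and those of Cd163 and Lgals3 in 10, of 11 alternatives, DESeq2 and no filter among them. The nuclear call of RT1-Ba was lost in 3 of 8, and those of Cd74, RT1-Bb and RT1-Da in 0 of the 8 or 9 that tested them. Thbd encodes thrombomodulin, a cofactor of protein C activation, and was named with Lgals3 and AC114233.2 after their values were seen. Thbd went from 45.85 to 148, 165 to 327, 68.4 to 66.3 and 44.8 to 100.2 CPM in TLH (0.86, SE 0.15, adjusted p = 5.67e-07), higher in 3 of the 4 rats. Of the TLH calls tested in nuclei, 72 of 83 higher (86.7%, against 45.8% of all genes) and 145 of 178 lower genes (81.5%, against 54.2%) had the same sign, and 6 and 5 were called.

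The class difference of Hmox1, Cd163, Lgals3 and Lyz2 was also read within cells of low class II RNA. Among TLH cells with under 5 class II UMIs, 104, 314, 158 and 153 were Marco-zero and 50, 112, 91 and 94 Marco-high. Hmox1 stood in these at 509, 693, 428 and 457 CPM against 1339, 1293, 918 and 934, and Lgals3 at 250.4, 199, 481 and 501 CPM against 733, 563, 1109 and 883. Cd163 stood at 329.9, 418, 398 and 404 CPM against 446, 613, 539 and 529. These 3 genes were higher in the Marco-high cells of each rat. Lyz2 stood at 51.7, 10.4, 49.2 and 110.0 CPM against 31.9, 5.29, 11.1 and 25.1, lower in the Marco-high cells of each rat. All TLH Marco-high cells, class II-rich ones included, held 35 Lyz2 UMIs, so these Marco-high values rest on few UMIs. In Marco-zero cells with 5 or more class II UMIs Lyz2 stood at 123, 208, 645 and 383 CPM, above the cells with fewer in every TLH rat. In immune-enriched Marco-zero cells it stood at 2358 against 69.3 CPM in DA but at 143 against 349 CPM in LEW, the opposite order.

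On the Visium sections, genes were compared between the spots ranked most periportal and those ranked most pericentral by their hepatocyte RNA (753 of each in section A, 732 in section B), with no test, since each section is 1 animal's tissue. Section A held 2260 spots with at least 5000 UMIs and section B 2196. Marco had a mean of 148 CPM in periportal and 58.6 CPM in pericentral spots of section A (2.52-fold) and 188 and 47.6 CPM in section B (3.94-fold). Cd5l (1.89-fold and 2.15-fold) and Clec4f (1.53-fold and 1.54-fold) were also higher in periportal spots, which held more UMIs (medians 14739 and 16272 against 13756 and 13782). In such spots, more Kupffer cells and more RNA per Kupffer cell cannot be told apart.

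Hmox1 was higher in periportal spots by 1.595-fold and 1.63-fold, Cd163 by 1.46-fold and 1.54-fold, Lgals3 by 1.91-fold and 1.65-fold and Grn by 1.26-fold and 1.31-fold, whereas Ctsd was nearly level (0.996 and 0.964). S100a8 (2.08-fold and 4.21-fold) and Rhpn1 (1.84-fold and 2.39-fold) rested on 50 to 82 UMIs per section. Class II genes ran the other way, with Cd74 at 118 against 146 CPM in section A (0.811-fold) and 111 against 178 CPM in section B (0.624-fold), and the 4 RT1 genes at 0.570-fold to 0.923-fold. Ecm1 (0.658-fold and 0.613-fold) and Lyve1 (0.720-fold and 0.568-fold) were lower in periportal spots, and Lyz2 was level (0.986 and 0.987).

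Across spots, which share a section and its depth, the rank correlation (Spearman's rho) with Marco was 0.0933 and 0.0743 for Hmox1, 0.111 and 0.0877 for Cd163, 0.142 and 0.151 for Lgals3, and -0.102 and -0.123 for Ecm1, over 2260 and 2196 spots. For Cd74 it was 0.0470 and 0.0284. Marco with the sum of Cd5l and Clec4f gave 0.206 and 0.253. These values are weak and are given as a description.

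**Figure D5:**
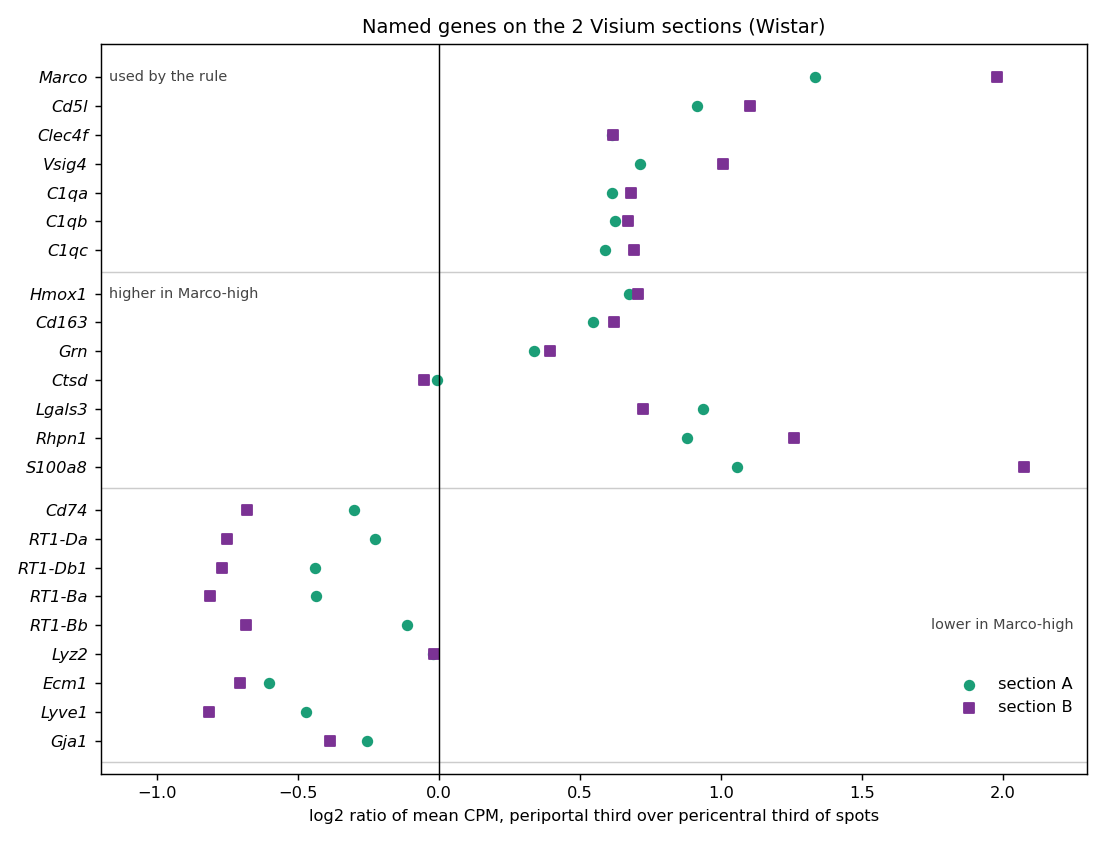
Log2 ratio of mean CPM in the most periportal over the most pericentral spots (753 of each in section A, 732 in section B) (horizontal axis) for genes of the rule and genes higher or lower in Marco-high Kupffer cells (vertical axis), with circles for section A and squares for section B, the square for Lyz2 covering its circle. Marco lies farthest to the right in section A, while all class II genes lie to the left of 0 in both sections.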

How the data were processed

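Single-cell, single-nucleus and Visium libraries were made by the authors, aligned with Cell Ranger 3.1.0 (sections, Space Ranger 1.1.0) against a custom Rattus norvegicus reference, and deposited as raw counts of UMIs, not normalized, which for TLH cover the barcodes that Cell Ranger called as cells. The TLH and immune-enriched counts carry no gene names, so names were taken by row from the nuclear gene list of equal length. Depth was 61441846 to 92484173 UMIs per TLH library, 48255870 and 60005133 per immune-enriched library and 8039397 to 15186970 per nuclear library, and low counts limit the nuclei most.

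UMIs were summed per rat and Marco class. Sums were compared with edgeR 4.0.16 (R 4.3.3), using glmQLFit and glmQLFTest with robust dispersion, TMM normalization, filterByExpr, rat as a block (both classes come from the same rat) and Benjamini-Hochberg adjustment at 0.05. Marco and the 6 other rule genes stayed in library sizes but not in the test. SEs were taken from the F statistic, and the robust fit gives outlying genes fewer degrees of freedom, so p does not follow from difference and SE alone. Steps were tested on simulated data. Hepatocyte-rich cells were kept cells of the same libraries outside the Kupffer rule, with a share of hepatocyte marker UMIs above the median of kept cells. Scrublet in scanpy 1.11.5 was used only in an alternative. Spots with at least 5000 UMIs were ranked by zonation genes, on log2(CPM + 10).

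Named were the 10 genes per direction with the largest difference (past the threshold, same direction in all 4 rats, at least 50 UMIs), up to 4 members of each of 24 lists by p, and a set of Kupffer and class genes. One gene that this rule names is not reported here. The members and lists were chosen with earlier results of these data known. Alternatives were RLE factors, DESeq2 1.42.0, no filter, no block, each rat left out, other Marco and Kupffer limits, the cell limits of the study, matching on total UMIs or hepatocyte RNA, thinning to 2000 UMIs (Marco-high then 2 or more UMIs), called doublets and the top 6% of Scrublet scores left out, and Kupffer scaling. Added after seeing the data was leaving out cells with class II UMIs, mesenchymal UMIs or under 3 Cd5l and Clec4f UMIs. P-values set the class difference against its variation within rats, the level of each rat being taken out by the block. This variation was estimated with dispersions that edgeR shares across genes, so p does not measure a gene's own spread over the rats alone.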

Additional observations from a re-analysis of the deposited data

Results flagged for a closer look

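Of 96 values tested for a sample far from the other 3 of its group, 7 were found, and chance alone gives about 1 in 20. In TLH Marco-zero cells, Rhpn1 stood at 11.8 CPM in DA-2 and at 4.63 to 4.83 CPM in the other rats, Ccl2 at 84.5 CPM in DA-1 against 15.3 to 25.4 CPM, and Alb at 20170 CPM in DA-2 against 12132 to 12861 CPM. In TLH Marco-high cells, Ccl2 stood at 19.3 CPM in DA-1 against 2.27 to 2.95 CPM, and Vopp1 at 48.5 CPM in LEW-1 against 19.3 to 23.6 CPM. In Marco-positive nuclei, RT1-Ba stood at 47.6 CPM in LEW-2, which is 1 UMI, and at 0 in the others. The median Marco count of these nuclei was 9 UMIs in LEW-1 against 5.5 to 6 UMIs.

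The class difference of Ccl5 differed between the strains by a test of the difference itself, at -2.33 on the log2 scale (SE 0.52, edgeR adjusted p = 0.0423). The call was lost with DESeq2 and with no filter on low counts, and in immune-enriched cells Ccl5 went from 5.10 to 3.13 CPM in DA and from 3.26 to 192 CPM in LEW. Ccl5 is also a gene of T and NK cells, whose summed markers were 20.7 to 181 CPM in Marco-zero and 30.6 to 451 CPM in Marco-high cells, and their part in this difference was not tested.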

How the results depend on the processing

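In TLH, the 201 higher and 312 lower genes became 60 and 98 with DESeq2, 89 and 127 matched on total UMIs, 54 and 65 without cells holding a mesenchymal UMI, 124 and 184 with a 6-gene sum of 16 and 0.6%, 77 and 150 matched on hepatocyte RNA, 110 and 161 thinned to 2000 UMIs with Marco-high then 2 or more UMIs, and 44 and 1375 with Kupffer scaling. With no filter 126 were higher. With no replicate block, that is unpaired, 1 was higher and 4 lower in TLH, and 0 and 0 in the immune-enriched cells (147 at an unadjusted p under 0.05) and in nuclei (17). Leaving out 1 rat gave 118 to 150 higher and 200 to 228 lower, with 118 without LEW-1, 125 without LEW-2 and 200 lower without DA-2.

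The immune-enriched calls (90 and 206) became 12 and 20 with DESeq2, 44 and 81 matched on total UMIs, 0 and 2 without class II cells, and 4 and 19 without mesenchymal UMIs, and 58 were higher without cells of under 3 Cd5l and Clec4f UMIs. The nuclear calls (9 and 7) became 0 and 3 with DESeq2 (28 at an unadjusted p under 0.05), 0 and 0 without class II nuclei (76), 0 and 2 without mesenchymal UMIs (49), and 0 and 3 without nuclei of under 3 Cd5l and Clec4f UMIs (57). With no filter 0 were higher (460), and leaving out 1 rat gave 0 to 4 higher and 3 to 7 lower, the 0 (82) and the 3 without DA-1. The strain term (1) became 0 with DESeq2 (4 at an unadjusted p under 0.05), 0 with no filter (326) and 4 matched on total UMIs.

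In TLH, direction turned under Kupffer scaling for Aif1 (-0.03), Ftl1 (-0.09), Apoe (-0.18), Cebpb (-0.09) and Pck1 (-0.06), and without mesenchymal UMIs for Lyve1 (0.08). Matched on hepatocyte RNA, direction turned for Alb (0.01), Tf (0.02) and Cyp2e1 (0.04), all members of the list used for the matching. It also turned for AABR07060872.1 without class II cells (0.17) and for Ccl5 without cells of under 3 Cd5l and Clec4f UMIs (1.20). In immune-enriched cells it turned without the latter cells for Ccl2 (1.35) and Lyz2 (0.38), and without class II cells for RT1-Ba (0.06). The cause was not tested. Of the other TLH values of named genes, 1423 kept direction and side of the threshold, 287 lost it and 20 gained it. Cd74 lost its call in 11 of 20 alternatives (adjusted p up to 0.216; -2.61 to -0.74 over all 20, the latter a kept call without class II cells), RT1-Da and RT1-Db1 in 4 of 20.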

Other observations

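Genes outside the comparisons above were read after their values were seen and are given as values. Lpo, which encodes lactoperoxidase, stood at 2.41, 0.69, 0 and 1.54 CPM in the TLH Marco-zero cells of DA-1, DA-2, LEW-1 and LEW-2 and at 0, 6.82, 25.5 and 58.95 CPM in their Marco-high cells, from 3 and 33 UMIs, and went from 0 to 56.3 CPM (DA) and from 4.89 to 67.0 CPM (LEW) in immune-enriched cells. Cd209f, a C-type lectin gene, stood at 0 and 1.63 CPM in immune-enriched Marco-zero and at 103 and 16.2 CPM in Marco-high cells, while in TLH it was too low to test.

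Mmp12, the macrophage elastase gene, had 87 UMIs in immune-enriched Marco-zero and 0 in Marco-high cells. The secretory protease inhibitor gene Slpi stood at 2445 (DA) and 685 CPM (LEW) in the same Marco-zero cells and at 475 and 11.3 CPM in Marco-high cells, and was not called (-3.72, edgeR adjusted p = 0.760). In TLH it went from 345 to 12.9, 256 to 15.9 and 135 to 15.3 CPM in DA-1, DA-2 and LEW-1 and from 6.18 to 70.7 CPM in LEW-2 (-2.54, adjusted p = 0.356). Few cells carried these levels, since 5 or more Slpi UMIs were found in 1.78%, 1.33% and 0.541% of the Marco-zero cells of DA-1, DA-2 and LEW-1, in 1.01% of the Marco-high cells of LEW-2, and in 9.41% (DA) and 1.03% (LEW) of immune-enriched Marco-zero cells, and in 4.35% of the 23 immune-enriched Marco-high cells of DA, a share that is 1 cell.

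The B cell gene Ighm stood at 928 CPM in the Marco-zero cells of LEW-2 and at no more than 17.9 CPM in both classes of the DA rats and LEW-1, and AABR07060872.1 at 4421 CPM in the same cells against 41.3 CPM in the Marco-high cells of LEW-2. In LEW-2, 0.483% of 207 Marco-zero cells had 5 or more Ighm UMIs, a share that is 1 cell, whereas 26.1% had 5 or more class II UMIs.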
